A study of Rattus norvegicus with 3 samples.

Results

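The blood-brain barrier genes are a set of 10 genes that mark the endothelium of brain vessels. They were chosen by name for their known roles, with earlier results of these data known. Of the 10, 9 have a row among the 30957 genes of the files and all 9 averaged at least 1 FPKM, the fragments of a gene scaled to 1 kb of its length and to 1000000 fragments in the library. Pecam1 was not analysed here. They were grouped as junction genes (Cldn5, Ocln, Tjp1), transporters (Abcb1a, Slco1a4, Slco1c1, Mfsd2a), a general endothelial gene (Esam) and Plvap, which marks fenestrated vessels. Messenger RNA was measured in motor cortex. The donors, rats 19, 35 and 70, were Sprague-Dawley males, and all 3 had undergone cerebral ischemia and reperfusion. Each carries the time label 8 weeks, and whether this is an age or a time after the operation is not given. The labels do not say how ischemia was induced, and no control rat was analysed here, so the comparisons are between genes within a rat and between the 3 rats.

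The blood-brain barrier is formed by endothelial cells sealed to each other by tight junctions, with few vesicles and with pumps and carriers that decide what enters the brain. Pericytes, a basement membrane and astrocyte endfeet surround these cells, and Wnt signals from the brain maintain the barrier state. In ischemia and reperfusion the barrier is known to open, through loss of junction proteins and more vesicle traffic. Fenestrated endothelium, such as that of the choroid plexus, lacks this barrier and carries Plvap.

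The libraries held an effective 15550000, 16460000 and 16060000 fragments in rats 19, 35 and 70, read from the steps of the low values, and 1 FPKM therefore stands for 15.6, 16.5 and 16.1 fragments per kb of a gene. Rat 35 stood apart: the summed level of 10 neuron markers was 1485 FPKM in rat 19, 64.9 in rat 35 and 2148 in rat 70. All 10 were lowest in rat 35, against 36.5% of all genes with a mean of 1 FPKM or more. Of 14134 genes with a mean of 1 FPKM or more, 42.5% had a highest rat over 2-fold above the lowest, a difference of more than 1 on the log2(FPKM + 1) scale. With rat 35 left out this share was 11%. In bulk tissue, fewer cells of a type and less RNA per cell cannot be told apart.

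The promoters of 3 genes are shown, a junction gene and a transporter with the same order of the rats (Cldn5 and Abcb1a, highest in rat 35) and a gene with another order (Plvap, highest in rat 70). Each is the 250 bases before the gene's start, 5′ to 3′ on the gene's strand (minus in each case), from RefSeq in the build GRCr8, and RefSeq gave such a window for 6 of the 10 genes. Capitals mark CCAAT (here on the other strand, as ATTGG) and the ETS-type sequence AGGAAG, out of a search on both strands. That search also covered the ETS-type sequence CCGGAA (12.6% of all windows) and the SOX sequence AACAAT (10.3%). It further covered the TCF/LEF sequence CTTTGA or its variant with a final T (27.5%). Among the 6 windows, TCF/LEF matches were in Tjp1 and SOX matches in Tjp1 and Slco1a4, which are not shown, and CCGGAA was in none. The Slco1a4 window also held CCAAT and AGGAAG, so neither was confined to the windows shown. No match overlapped another in the windows shown.
Cldn5 (chr11:95718599-95718848): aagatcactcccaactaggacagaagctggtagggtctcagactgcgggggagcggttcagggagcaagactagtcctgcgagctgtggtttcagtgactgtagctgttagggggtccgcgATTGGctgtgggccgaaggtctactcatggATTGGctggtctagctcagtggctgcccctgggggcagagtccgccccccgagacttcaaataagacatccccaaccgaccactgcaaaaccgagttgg
Abcb1a (chr4:26397649-26397898): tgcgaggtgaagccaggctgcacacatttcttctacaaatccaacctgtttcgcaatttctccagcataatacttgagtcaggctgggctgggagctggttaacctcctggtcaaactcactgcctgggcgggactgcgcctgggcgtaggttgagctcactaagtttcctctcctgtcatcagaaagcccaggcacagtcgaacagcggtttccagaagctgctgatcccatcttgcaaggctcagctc
Plvap (chr16:18231280-18231529): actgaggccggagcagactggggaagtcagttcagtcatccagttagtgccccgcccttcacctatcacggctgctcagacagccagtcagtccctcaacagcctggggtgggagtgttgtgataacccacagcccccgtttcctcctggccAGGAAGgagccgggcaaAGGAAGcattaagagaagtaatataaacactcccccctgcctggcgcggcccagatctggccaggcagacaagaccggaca
The Cldn5 window held CCAAT at 2 places, starting 129 and 99 bases before the start, a sequence present in 34.0% of the 33469 windows of the table. The Plvap window held AGGAAG at 2 places, 98 and 81 bases before the start, against 29.5% of all windows with at least 1 match. None of the letters searched were in the Abcb1a window, which says nothing of the factors that bind there.

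Junction genes were the most abundant class by their mean, through Cldn5 and Tjp1 and not Ocln. They shared 1 order of the rats, with rat 35 highest and rat 70 lowest. Cldn5 encodes claudin-5, the main sealing protein of brain endothelial tight junctions (chromosome 11, 86356294 to 86357718, minus strand, in Rnor 6.0 as are the loci below). It stood at 80.3 FPKM in rat 19, 131 in rat 35 and 63.7 in rat 70, a mean of 91.7 ± 35.2 (SD, n = 3). Rat 35 lay above both other rats, with a highest-to-lowest ratio of 2.06. Its locus overlaps Cdc45 on the other strand, a DNA replication gene at 0.82, 1.61 and 0.28 FPKM in the same rats, and whether the counting used strand is not given.

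Ocln, which encodes the tight junction membrane protein occludin (chromosome 2, 30527715 to 30577218), was the junction gene that varied most. It was at 5.92 FPKM in rat 19, 11.1 in rat 35 and 3.25 in rat 70 (6.75 ± 3.98, SD, n = 3), and the highest rat held 3.41 times the level of the lowest. Tjp1 encodes ZO-1, the scaffold that ties claudins and occludin to actin in endothelium and in many other cells (chromosome 1, 126146489 to 126227469). It was at 38.2, 41.6 and 28.9 FPKM in rats 19, 35 and 70 (36.2 ± 6.59, SD, n = 3). Tjp1 was the steadiest of the 9 genes, with a ratio of 1.44 between its highest and lowest rat. Its rats 19 and 35 were in the reverse order when mitochondrial genes were left out and the rest rescaled.

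Esam, an adhesion molecule of the junctions of endothelium in all organs (chromosome 8, 39997875 to 40008809), followed the junction genes. It was at 14.7 FPKM in rat 19, 27.2 in rat 35 and 11.4 in rat 70 (17.8 ± 8.33, SD, n = 3). Rat 35 was again above the other pair, by 2.38-fold over rat 70.

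**Figure D1:**
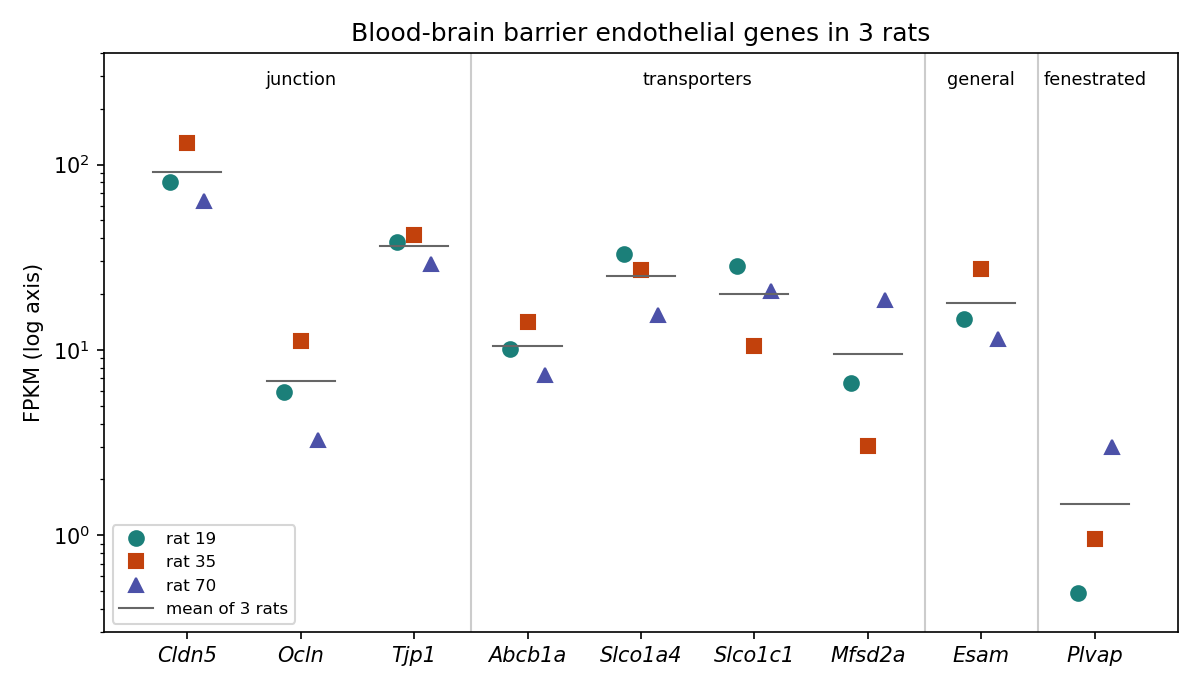
FPKM on a log axis of the 9 measured genes in rat 19 (circles), rat 35 (squares) and rat 70 (triangles), with the mean of 3 rats as a line. Rat 35 is the highest for the 3 junction genes, Abcb1a and Esam, and the lowest for Slco1c1 and Mfsd2a.

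Transporters did not share an order of the rats. Abcb1a encodes P-glycoprotein, the efflux pump that returns drugs to the blood (chromosome 4, 22133521 to 22425515). It was at 10.1 FPKM in rat 19, 14.1 in rat 35 and 7.27 in rat 70 (10.5 ± 3.44, SD, n = 3), the order of the junction genes. Its close relative Abcb1b was not analysed here, and whether fragments of that gene were counted to Abcb1a is not given. Slco1a4 encodes an organic anion carrier (chromosome 4, 175969549 to 176026163). It was at 33.1, 27.0 and 15.3 FPKM in rats 19, 35 and 70 (25.1 ± 9.01, SD, n = 3), highest in rat 19 and lowest in rat 70. Its relatives Slco1a1, Slco1a2 and Slco1a6 lay between 0 and 0.14 FPKM in every rat.

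Slco1c1 and Mfsd2a were lowest in rat 35, where the junction genes were highest. Slco1c1 carries thyroxine into the brain and is also known from astrocytes and the choroid plexus (chromosome 4, 175729726 to 175776808). It was at 28.3 FPKM in rat 19, 10.5 in rat 35 and 20.8 in rat 70 (19.9 ± 8.97, SD, n = 3). Mfsd2a carries lysophospholipids with omega-3 fatty acids across the barrier and is known in mice to hold back vesicle traffic (chromosome 5, 140642885 to 140657745). It was at 6.60 FPKM in rat 19, 3.02 in rat 35 and 18.7 in rat 70 (9.43 ± 8.20, SD, n = 3). With a highest-to-lowest ratio of 6.18, Mfsd2a had the largest spread of the 9 genes on the log2(FPKM + 1) scale (2.29).

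Markers of other cells known to use Slco1c1 also differed between the rats. The 9 astrocyte markers, all measured, summed to 3055, 1019 and 1932 FPKM in rats 19, 35 and 70. Of these 9, 6 were lowest in rat 35, against 36.5% of all genes. Of 12 choroid plexus markers 11 had a row and 8 averaged 1 FPKM, and the 11 summed to 45.8, 19.5 and 378 FPKM. In rats 19 and 70 most of that was Ttr, the transthyretin gene, which stood at 33.1, 0.17 and 362 FPKM. Of the 8, 4 were highest in rat 70, against 29.8% of all genes, 2 in rat 35, against 45.4%, and 2 in rat 19, against 24.8%. Sostdc1 was at 0.22, 0 and 2.93 FPKM, highest in rat 70 like Ttr, whereas Aqp1 was at 2.43, 10.2 and 3.37 FPKM, Folr1 at 1.57, 2.09 and 2.02 and Kcnj13 at 3.94, 3.87 and 2.73. The part of these cells in the levels of Slco1c1, Mfsd2a and Plvap was not tested.

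Plvap encodes the protein of the diaphragms of fenestrae and caveolae, which mature barrier vessels lack (chromosome 16, 19906318 to 19918689). It was at 0.49 FPKM in rat 19, 0.95 in rat 35 and 2.99 in rat 70 (1.48 ± 1.33, SD, n = 3). Rat 70 was 6.14 times as high as rat 19, and the gene was the least abundant of the 9 in every rat. Its values rest on 7.58, 15.6 and 48.1 fragments per kb of the length counted, so that the lowest is imprecise. On the log2(FPKM + 1) scale its spread was 1.42, and 2.40 with a pseudocount of 0.1.

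Of the 9 genes, 7 were over 2-fold apart across the rats, against 42.5% of all genes. Cldn5 (1.03) and Slco1a4 (1.06) lay just past the limit of 1 on the log2 scale, and Abcb1a (0.87) just short of it. Rescaling to a common sum or by the median of ratios brought Cldn5 and Slco1a4 under 1, leaving 5 genes. Leaving out mitochondrial genes and rescaling also left 5, but not the same ones. There Cldn5 (0.79) and Esam (0.98) fell under 1 and Slco1a4 (1.04) did not. Without rat 35, 3 genes were over 2-fold apart (Slco1a4, Mfsd2a, Plvap), against 11% of all genes, and without rat 70 only Slco1c1, against 26.1%. Rat 35 was the highest for 5 of 9 genes, against 45.4% of all genes, and the full order of rat 35, rat 19 and rat 70 held for 5 of 9 (Cldn5, Ocln, Tjp1, Abcb1a, Esam), against 33.6%. Rat 70 was the highest for 2 of 9 (Mfsd2a, Plvap), against 29.8%, and rat 19 for 2 of 9 (Slco1a4, Slco1c1), against 24.8%. Rat 70 was the lowest for 6 of 9, against 44.2%, rat 35 for 2, against 36.5%, and rat 19 for 1, against 19.3%.

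Per length, Cldn5 was the most abundant of the 9 genes in each rat, and its range did not overlap that of Tjp1, the next. Tjp1 was at rank 2 in each rat, although its range overlaps that of Slco1a4. In the middle, Slco1a4, Slco1c1, Esam, Abcb1a, Mfsd2a and Ocln followed by mean level, and each overlapped the next in its range. Mfsd2a was at rank 7 in rat 19, rank 8 in rat 35 and rank 4 in rat 70, and Slco1c1 at rank 4, 7 and 3 in the same rats. Plvap was last in each rat and did not overlap Ocln.

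Within each rat, junction genes were above transporters, and the distance depended on the rat. On the log2(FPKM + 1) scale the class means of the junction genes were 4.81, 5.35 and 4.33 in rats 19, 35 and 70. Those of the transporters were 4.09, 3.56 and 3.96. Transporters minus junction genes therefore came to -0.72 in rat 19, -1.79 in rat 35 and -0.38 in rat 70 (mean -0.96 ± 0.74, SD, n = 3). The sign was the same in 3 of 3 rats, and the gap was widest in rat 35. That sign rests on Cldn5, since Ocln and Tjp1 alone averaged below the transporters in rats 19 and 70.

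Set against Esam, the mean of the junction genes kept nearly the same distance in the 3 rats and that of the transporters did not. Single genes of a class differed. On the log2 scale Tjp1 varied less between the rats than Esam (0.51 against 1.18), and Ocln varied more (1.51). The transporter Abcb1a (0.87) had the same order of the rats as Esam. Junction genes minus Esam was 0.84, 0.53 and 0.70 on the log2 scale in rats 19, 35 and 70 (0.69 ± 0.15, SD, n = 3). The distance was less steady against the general endothelium list, at 1.34, 0.93 and 1.47 in the same rats (1.24 ± 0.28). With Plvap counted beside Esam its SD was 0.57. Transporters minus Esam was 0.12, -1.26 and 0.32 (-0.27 ± 0.86, SD, n = 3). The mean of this difference rests on rat 35, since it was 0.22 without that rat. It was also positive with summed FPKM (1.95), with Plvap counted beside Esam (1.21) and against the general endothelium list (0.28), so no direction is called.

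**Figure D2:**
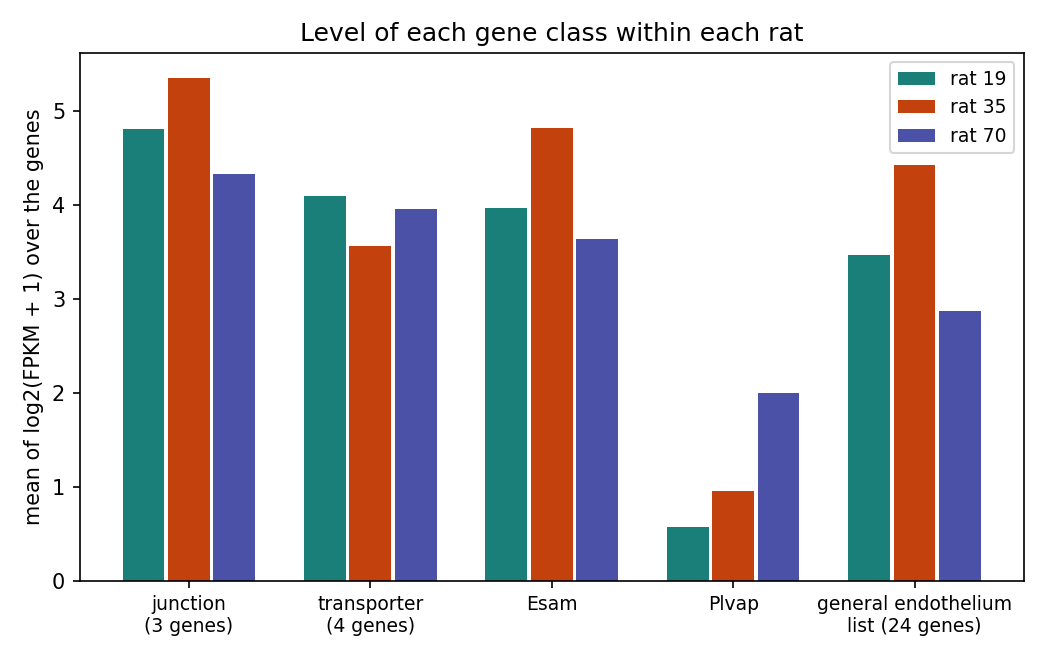
Mean of log2(FPKM + 1) over the genes of each class in rats 19, 35 and 70, with Esam and Plvap as single genes and the 24 general endothelial genes at the right. In rat 35 the junction genes (5.35), Esam and the endothelium list are highest while the transporters are lowest (3.56).

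Other genes of general endothelium were highest in rat 35. All 24 listed had a row and averaged 1 FPKM or more, and 24 of 24 were highest in rat 35, against 45.4% of all genes, except that Flt1 was not under any of the 3 other scalings and Kdr was not when mitochondrial genes were left out. Of the 24, 22 were over 2-fold apart, against 42.5%, and 6 without rat 35, against 11%. Their median deviation from the 3-rat mean was -0.16 in rat 19, 0.82 in rat 35 and -0.72 in rat 70 (log2), and their sum was 292, 694 and 198 FPKM. Vwf, which encodes von Willebrand factor, was at 29.2, 104 and 33.7 FPKM in rats 19, 35 and 70. Eng, a TGF-beta co-receptor gene, was at 24.1, 92.1 and 22.9 FPKM. Tie1, an endothelial receptor kinase gene, was at 16.6, 50.7 and 7.32 FPKM, and Cd34, which blood progenitors and fibroblasts also express, at 20.1, 61.8 and 9.57 FPKM. Rat 35 lay above the other rats for each of these 4, as it did for Egfl7, an endothelial matrix gene at 22.7, 49.4 and 15.4 FPKM. Flt1, a VEGF receptor gene, and Robo4, a guidance receptor gene, were the 2 not over 2-fold apart, at 13.5, 18.0 and 17.9 FPKM and at 3.31, 4.65 and 3.52 FPKM, and were named for that after their values were seen.

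**Figure D3:**
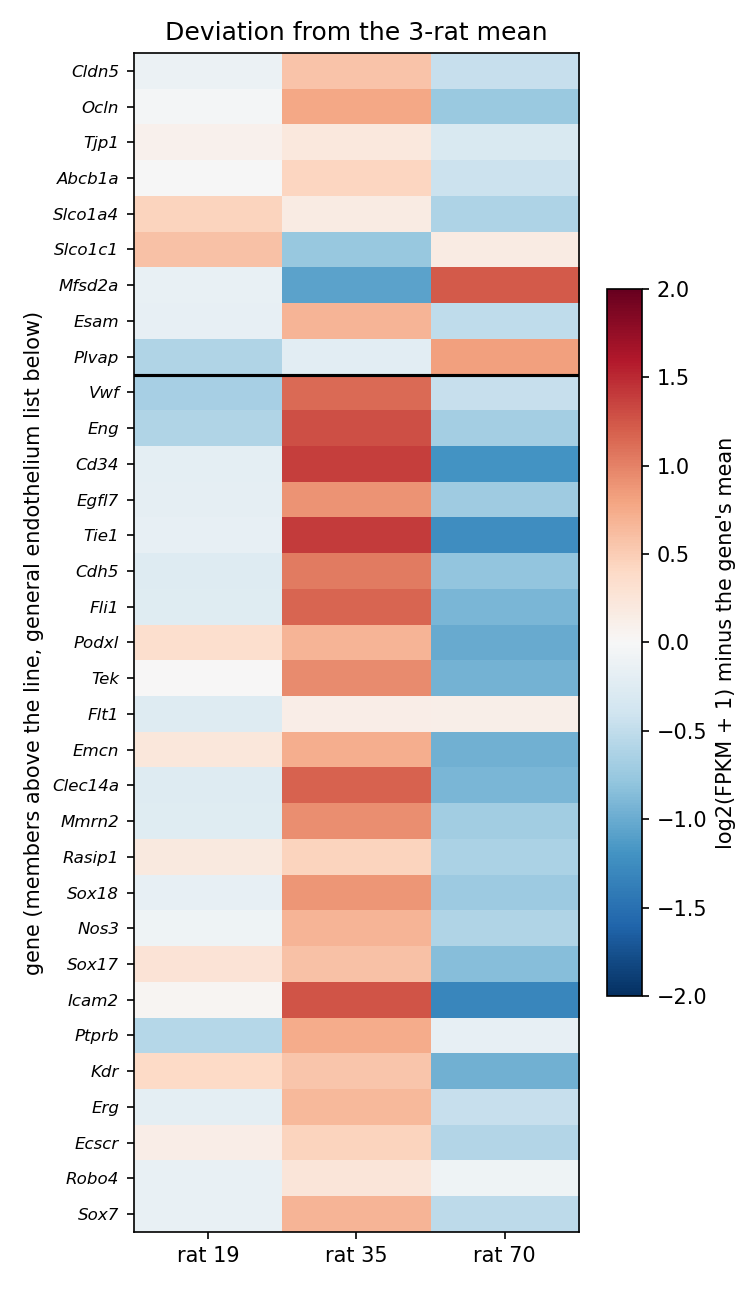
Deviation of log2(FPKM + 1) from each gene's 3-rat mean, red above and blue below, for the 9 genes (above the line) and the 24 general endothelial genes (below). On this scale the lower block is red in rat 35, near 0 for Flt1, whereas Slco1c1, Mfsd2a and Plvap are blue there.

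Markers of other cells were also uneven between the same libraries. Sums are over all genes of a list with a row, and counts in brackets are of genes that averaged 1 FPKM. Leukocyte and platelet markers, of which 8 of 14 averaged 1 FPKM and Ppbp was listed at 0, summed to 179, 619 and 95.6 FPKM in rats 19, 35 and 70. Microglia and macrophage markers (12 of 12) summed to 929, 2663 and 734 FPKM, meningeal and fibroblast markers (11 of 12, Col1a2 listed at 0) to 349, 2954 and 284, and red blood cell markers (3 of 6) to 36.8, 137 and 44.0. Pericyte and smooth muscle markers (12 of 12) summed to 240, 483 and 145 FPKM. Of the 12, 11 were highest in rat 35, against 45.4% of all genes, among them Pdgfrb at 21.8, 102 and 18.4. Lymphatic endothelium markers (5 of 6) summed to 70.1, 92.1 and 37.1 FPKM, mostly from Pdpn (58.3, 82.1 and 19.3), which other cells share. Of the 5, 3 were highest in rat 35, against 45.4% of all genes. Lyve1, which is also among the microglia and macrophage markers, was at 0.90, 3.80 and 1.21 FPKM. Prox1 (2.33, 1.80 and 10.2) and Reln (7.09, 1.83 and 4.99), which neurons and glia also express, were lowest in rat 35. Oligodendrocyte markers (8 of 8) summed to 4337, 3646 and 5718 FPKM. The part of these cells in the endothelial levels was not tested.

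Scaled to the general endothelium list, the 9 genes ranged from little to much spread between the rats, with no clear break at the 2-fold limit. After subtracting the list's median deviation in each rat, the spread was 0.17 for Ocln, 0.36 for Esam, 0.51 for Cldn5 and 0.67 for Abcb1a (log2). It was 1.03 for Tjp1, just past the limit of 1 and up from 0.51 before the scaling. For Slco1a4 it was 1.26, for Slco1c1 2.47, for Plvap 2.57 and for Mfsd2a 3.83. Thus 5 of 9 genes were over 2-fold apart after this scaling, against 72.4% of all genes. All 9 were then lowest in rat 35, but so were 85.4% of all genes, so this is close to the background.

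**Figure D4:**
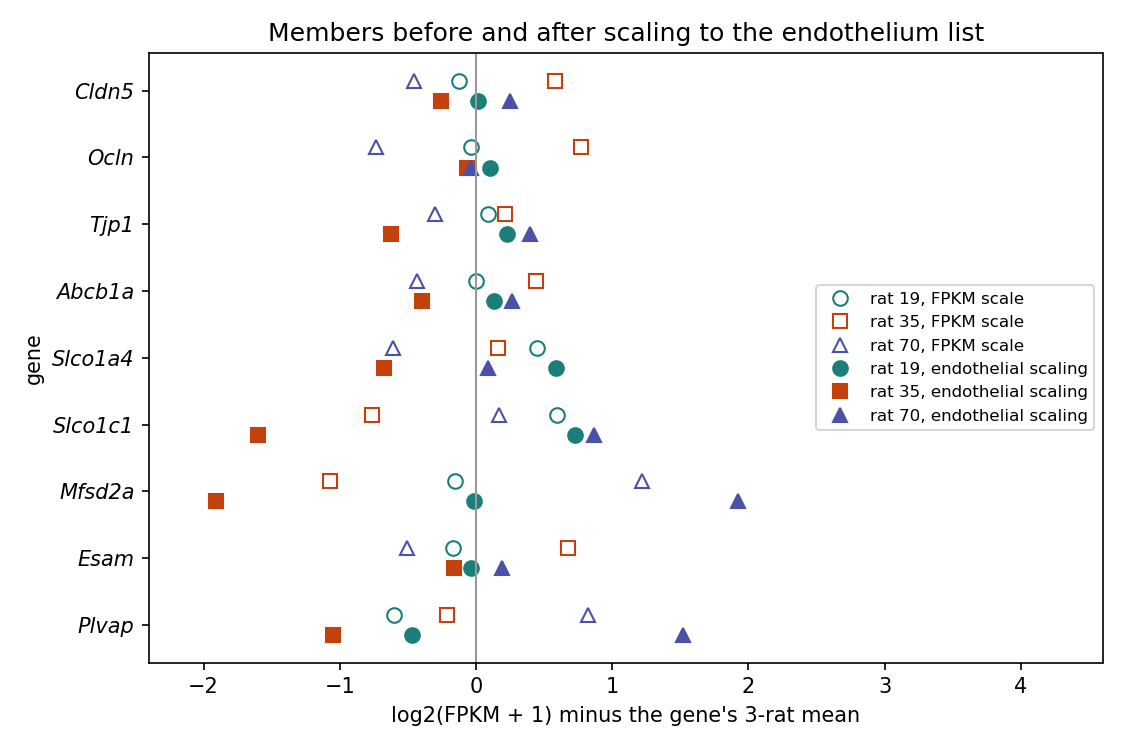
Deviation of each gene from its 3-rat mean in log2 units, on the FPKM scale (open symbols) and after subtracting the median deviation of the general endothelium list (filled symbols). Ocln and Esam draw together under the scaling, and Tjp1, Slco1a4, Slco1c1, Mfsd2a and Plvap spread further apart.

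The ratio to Cdh5, the gene of the endothelial cadherin of adherens junctions, was taken because Pecam1 could not be used, and was chosen after the values were seen. In FPKM, Cldn5 over Cdh5 was 5.50 in rat 19, 3.52 in rat 35 and 6.49 in rat 70, and Tjp1 over Cdh5 was 2.62, 1.12 and 2.94. Ocln over Cdh5 varied less, at 0.41, 0.30 and 0.33. Mfsd2a over Cdh5 was 0.45, 0.081 and 1.90, below 1 in rats 19 and 35 and above it in rat 70. Slco1c1 over Cdh5 was 1.94, 0.28 and 2.13. Slco1a4 over Cdh5 was 2.27, 0.725 and 1.56, Abcb1a 0.696, 0.380 and 0.742, Esam 1.01, 0.732 and 1.17, and Plvap 0.0334, 0.0255 and 0.305. In all 9 genes the ratio was lowest in rat 35, as it was in 90.7% of all genes. Cldn5 was above Cdh5 in 3 of 3 rats by a mean of 2.25 ± 0.41 (log2, SD, n = 3), with p = 0.25 by an exact permutation of the signs, two-sided, and 0.45 after Benjamini-Hochberg adjustment over 9 genes. This is the smallest p that 3 rats allow, so no ratio could pass 0.05.

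Further junction genes followed rat 35 in part. Of 16 listed, all had a row and 15 averaged 1 FPKM. Rat 35 was highest for 10 of the 15, against 45.4% of all genes, and 4 were over 2-fold apart, fewer than the 42.5% of all genes, with a median spread of 0.80 against 0.86 over all genes. Without rat 35 none of the 15 were over 2-fold apart, against 11% of all genes, and rat 35 was highest for 7 when mitochondrial genes were left out. Ctnnb1, the beta-catenin gene of adherens junctions and Wnt signalling, was at 137, 240 and 144 FPKM in rats 19, 35 and 70. Cdh5 was at 14.6, 37.2 and 9.81 FPKM, and Cgnl1, a junction scaffold gene, at 9.14, 17.9 and 5.21. Jam3 (25.6, 27.0 and 45.2) and Pkp4 (80.3, 55.0 and 90.8) were highest in rat 70. Ctnnd1, which binds cadherins, was at 24.3, 40.5 and 20.4 FPKM. Neurons and other cells also express several of these genes, whichever rat was highest, and the part of such cells in the levels was not tested.

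Few of the further barrier transporters were lowest in rat 35, as Slco1c1 and Mfsd2a were. Of 21 listed, 20 averaged 1 FPKM and Abcc1 was listed at 0. Rat 35 was highest for 13 of the 20, against 45.4% of all genes, and lowest for 3, against 36.5%. Of the 20, 7 were over 2-fold apart, against 42.5%, and 3 without rat 35, against 11%, so the spread was near the background. Slc2a1, the glucose transporter gene of brain endothelium and astrocytes, was at 53.4, 92.9 and 67.5 FPKM in rats 19, 35 and 70. Slc3a2, the shared heavy chain of amino acid carriers, was at 113, 138 and 101 FPKM. The efflux pump gene Abcc5 (39.1, 53.0 and 38.8) and the glutamine carrier gene Slc38a3 (34.6, 47.3 and 34.1) had the same highest rat. Slco2b1, which microglia also express, was at 24.4, 63.8 and 13.5 FPKM.

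Genes of vesicle traffic and of vessel activation were counted beside Mfsd2a and Plvap. Of 8 genes of caveolae and transcytosis, 6 had a row. Rat 35 was highest for 4 of these, against 45.4% of all genes. Of the 6, 2 were over 2-fold apart, against 42.5%, and 0 without rat 35, against 11%, which is near the background. Cav1, which encodes the caveolin that forms caveolae, was at 38.2, 45.5 and 27.7 FPKM in rats 19, 35 and 70, and Cav2 at 22.1, 19.1 and 20.1. Prkcdbp, the caveolar cavin-3 gene, was at 21.4, 41.6 and 17.4 FPKM, Ehd2, which stabilises caveolae, at 15.3, 33.3 and 7.68, and Pacsin2 at 15.8, 31.2 and 16.3. On the FPKM scale none of these 5 were highest in rat 70, as Mfsd2a and Plvap were, but with libraries at a common sum 2 of the 6 were.

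Of 12 genes of activated or leaky endothelium, 9 averaged 1 FPKM, all 9 were over 2-fold apart, against 42.5% of all genes, and 8 were highest in rat 35, against 45.4%. Without rat 35, 2 of the 9 were over 2-fold apart, against 11%. Icam1 and Vcam1, adhesion molecules that hold leukocytes, were at 9.99, 28.1 and 6.32 FPKM and at 9.68, 16.2 and 4.64 FPKM in rats 19, 35 and 70. Lrg1, which alters TGF-beta signalling in vessels, was at 9.60, 62.0 and 13.6 FPKM, the urokinase receptor gene Plaur at 3.94, 21.8 and 3.49, and the interleukin-1 receptor gene Il1r1 at 8.79, 22.9 and 4.07. Leukocytes also express several of these. The leukocyte sums above were highest in rat 35 too, and the part of leukocytes in these levels was not tested.

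Wnt pathway genes of the barrier were mixed. Of 18 listed, Ctnnb1 among them, 16 had a row, 15 averaged 1 FPKM and Ndp was listed at 0. Rat 35 was highest for 9 of the 15, against 45.4% of all genes, and 9 were over 2-fold apart, against 42.5%. Without rat 35, 1 of the 15 was over 2-fold apart, against 11%. The receptor component gene Adgra2 was at 17.3, 59.8 and 14.7 FPKM in rats 19, 35 and 70. Wnt7b, a ligand gene of neurons and glia, was at 10.96, 1.84 and 7.70 FPKM, and its relative Wnt7a, named although the rule did not select it, at 6.77, 1.29 and 4.41. Both ligands were lowest in rat 35, as were 36.5% of all genes. That rat also had the lowest neuron markers, and a link between them was not tested. Tspan12, a receptor partner gene, was at 28.3, 10.3 and 21.3 FPKM, close to the values of Slco1c1, and the Wnt target gene Apcdd1 at 17.7, 24.95 and 13.4.

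The basement membrane list and the astrocyte endfeet list differed in their highest rat. Of 11 basement membrane genes, 10 were measured, 9 were highest in rat 35, against 45.4% of all genes, and 9 were over 2-fold apart, against 42.5%. Their median spread was 2.31, against 0.86 over all genes, and without rat 35, 2 of the 10 were over 2-fold apart, against 11%. Col4a1 and Col4a2, the main collagen IV chains, were at 45.9, 218 and 40.6 FPKM and at 34.0, 147 and 41.4 FPKM in rats 19, 35 and 70. Nid1, which links collagen IV to laminin, was at 41.2, 153 and 19.4 FPKM, and the fibronectin gene Fn1 at 21.6, 176 and 46.6. Of 9 genes of astrocyte endfeet, 6 were highest in rat 70, against 29.8% of all genes, and 6 lowest in rat 35, against 36.5%. Over 2-fold apart were 6 of the 9, against 42.5%, and 3 without rat 35, against 11%. Aqp4, which encodes the water channel of endfeet, stood at 113, 54.6 and 16.9 FPKM, the potassium channel gene Kcnj10 at 16.1, 12.1 and 57.8, the gap junction gene Gja1 at 233, 126 and 211, and the chloride channel regulator gene Mlc1 at 162, 61.0 and 184. Dag1, the matrix receptor gene of endfeet, was at 35.4, 60.2 and 44.8 FPKM.

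**Figure D5:**
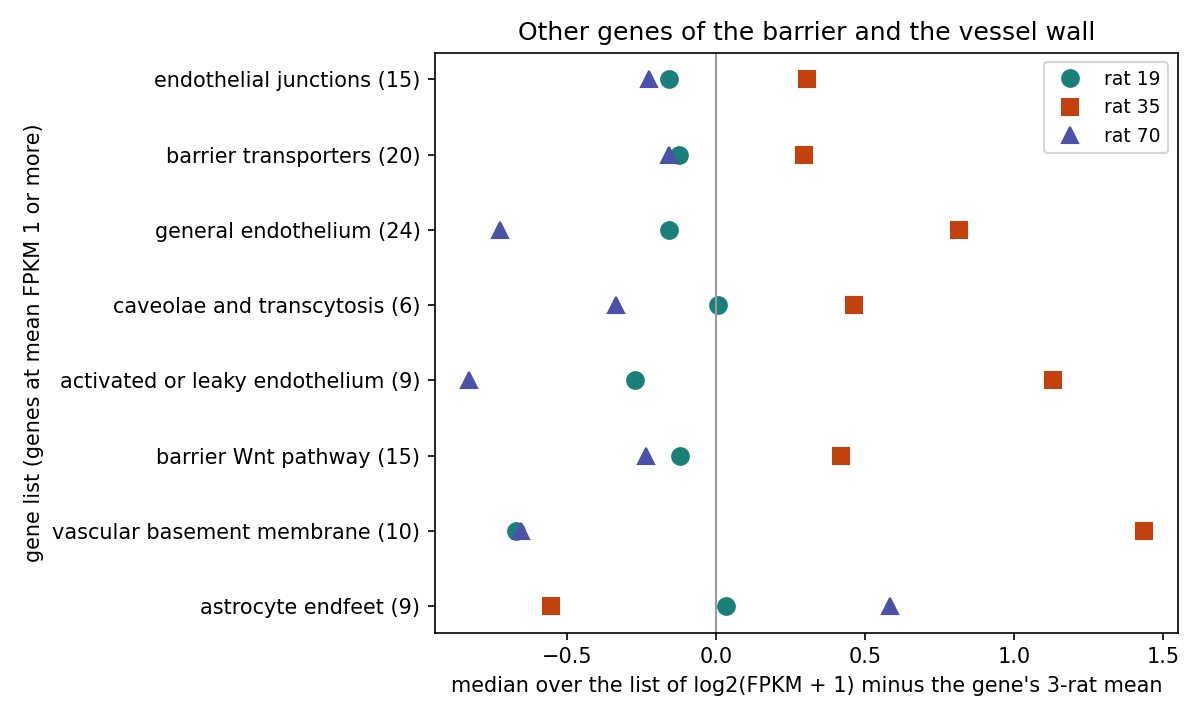
Median over each list of the deviation of log2(FPKM + 1) from the gene's 3-rat mean, in rats 19, 35 and 70, with the number of genes at a mean of 1 FPKM or more in brackets. Rat 35 is highest in 7 of the 8 lists, and in astrocyte endfeet it is lowest.

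The genes whose values ran most like Cldn5 were not endothelial markers. Likeness was the root mean square difference of the log2 deviations over the 3 rats, among 9738 genes with a mean of 5 FPKM or more. The 5 nearest were Rpl27-l1, Sap30, Ergic3, Rpl7 and Isg20l2, at 0.00825 to 0.0114. Ribosomal protein genes have near-identical copies, so Rpl27-l1 and Rpl7 are uncertain. Esam was at rank 175 (0.070) and Abcb1a at rank 404 (0.11), whereas Mfsd2a was at rank 8909 (1.36). With 3 rats many genes share any given pattern, so this list describes values only.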

How the data were processed

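The authors deposited 1 table of FPKM per rat, and per the labels' design text FPKM was obtained by a Perl script from normalized fragment counts. The submitters' processing notes list HISAT2 2.0.4 and StringTie 1.3.0 as tools and Rnor 6.0 as build, without roles. The way of normalizing and the use of strand were not given in the sources used here. The deposited values were taken as log2(FPKM + 1), a scale that shrinks differences of low genes. Genes with a mean of 1 FPKM or more in 3 rats entered the shares over all genes. A gene is called over 2-fold apart when its highest and lowest rat differ by more than 1 on this scale. All rats form 1 group, so groups could not be compared. Library size was read from the commonest low product of FPKM and span among genes spanning under 400 bp, and it is approximate because higher values deviate slightly from whole multiples. The length counted per gene is not given, so no counting intervals are printed. Exact zeros can be failed estimates.

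Members and lists were chosen with earlier results of these data known. Named genes are the 9 members, the 4 most abundant and the 2 most variable measured genes of each list of the endothelium and its surroundings, and the 5 genes most like Cldn5, and 1 gene of the transporter list is not reported here. From the lists of other cell types summed levels and single markers are given, and Wnt7a was chosen after its values were seen. Older symbols were matched through the RefSeq table. The rats were taken as separate animals by their numbers. Calculations used Python 3.11.15, pandas 2.3.3 and numpy 2.4.6, and the measures were checked on simulated data. Alternatives were a pseudocount of 0.1, other minima, 3 scalings, other class definitions and leaving out each rat. The planned ratios to Pecam1 were replaced by ratios to Cdh5.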

Additional observations from a re-analysis of the deposited data

How the results depend on the processing

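The median gene was higher by 0.84 (log2) once libraries had a common sum of 1000000, and by 1.25 when mitochondrial genes were also left out. Under a pseudocount of 0.1 and all 3 scalings, the class differences kept their sign and moved by less than their SD over rats, and the counts stayed within 1.5 times: 5 to 7 genes over 2-fold apart, 5 after endothelial scaling and 4 or 5 highest in rat 35. With single rats left out, these counts were 1 to 5, 2 to 4 and 6, transporters minus junction genes was -1.25 to -0.55, junction genes minus Esam 0.62 to 0.77 and transporters minus Esam -0.57 to 0.22. Without rat 35 the first count was 3 and the second 2, and without rat 70 they were 1 and 3. Transporters minus Esam changed sign without rat 35 (0.22), with summed FPKM (1.95), with Plvap beside Esam (1.21) and against the general endothelium list (0.28). The first of these rests on the single rat left out, and the cause of the others was not tested. Junction genes minus the general class came to 2.97 with summed FPKM, 2.17 with Plvap beside Esam and 1.24 against the list. The list and Cdh5 as yardsticks were chosen after seeing the data. With single rats left out, the mean log2 ratio to Cdh5 was -0.41 to 0.96 for Slco1c1, negative without rat 19 (-0.36) or rat 70 (-0.41), and -0.21 to 0.11 for Esam, positive without rat 35. The share of all genes over 2-fold apart was 32.8% with no minimum and 40.9% at 5 FPKM. Ratios to Pecam1, scaling by Pecam1 and, with Esam among the junction genes, the differences from the general class were not run. Plvap has the thinnest depth of the 9 genes. No paired analysis was possible because there is 1 group.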
